A study of Mus musculus with 24 samples.

Results

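The comparison described here is the effect of CI-994 on H3K27 acetylation in mice that explored a conditioning chamber without being shocked. Its members are the 3 H3K27ac libraries labelled HDACi-Context and the 3 labelled Veh-Context, 6 of the 12 H3K27ac libraries of the series, and every peak of the shared peak set was used. Both groups were male C57BL/6J mice aged 12 weeks. They received either CI-994 at 30 mg/kg or its vehicle (10% DMSO, 30% Kolliphor and 60% saline) by intraperitoneal injection, 1 h before the chamber session, and were killed 1 h after it. Both were placed in the chamber for as long as the conditioned mice but received no foot shock, so all 6 libraries lack the learning event and share the handling and the injection. Nuclei of the dentate gyrus were sorted for the neuronal nuclear protein NeuN, about 750000 nuclei per sample. The sample titles name the hippocampus instead, and the labels do not say whether a sample pools several mice, so the p-values measure only the spread between these samples.

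H3K27ac is the acetylation of lysine 27 on histone H3, which is laid down by the acetyltransferases CBP and p300 and marks active promoters and enhancers. Histone deacetylases (HDACs) remove it, and CI-994 is a benzamide that inhibits the class I enzymes HDAC1, HDAC2 and HDAC3. In the dentate gyrus, the entrance of the hippocampal circuit, the dominant neuron is the granule cell, which carries the transcription factor Prox1, and class I HDAC inhibitors are known there for strengthening memory when given around learning. The mark is measured by chromatin immunoprecipitation and sequencing (ChIP-seq), in which reads pile up over acetylated stretches called peaks.

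The Veh-Context libraries held 13260955, 6639158 and 13711438 counts in peaks, and the HDACi-Context libraries 13533876, 16734757 and 13880504, so Veh-Context replicate 2 was the shallowest and its values carry the largest counting error. No spike-in is named in the labels. Every rise or drop below is therefore relative to the other peaks of the same library, and a change of the total amount of acetylation cannot be told apart from none. The defining marker of the sort was present: the broad acetylated domain over Rbfox3, which encodes NeuN, held 148, 183 and 208 CPM (counts scaled to a common library size) with vehicle and 157, 136 and 110 CPM with the drug. The domain of Prox1 held 158, 141 and 163 CPM with vehicle and 94.9, 109 and 88.3 CPM with the drug.

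The promoters of 5 genes are printed to show what the ETS core, searched for below, looks like in place. They were chosen for that and are neither the largest changes nor typical, since most windows under fallen peaks lack the core. Each line gives the 250 bases before the start site in RefSeq (GRCm38.p6), 5′ to 3′ on the strand of the gene, and the capitals mark the core of ETS-family sites, CCGGAAG, or its reverse complement CTTCCGG. Rps6 (ribosomal protein S6; chr4:86857368-86857617, minus strand), Sirt6 (a deacetylase of the sirtuin family; chr10:81627567-81627816, minus), Nol10 (ribosome assembly; chr12:17348243-17348492, plus) and Per1 (the circadian repressor; chr11:69099902-69100151, plus) fell. Mllt3 (a reader of acetylated histones; chr4:87806324-87806573, minus) rose, a call lost in 9 alternatives, and its window has no such core. The Rps6 window lies only partly under its peak, the others wholly.
Rps6: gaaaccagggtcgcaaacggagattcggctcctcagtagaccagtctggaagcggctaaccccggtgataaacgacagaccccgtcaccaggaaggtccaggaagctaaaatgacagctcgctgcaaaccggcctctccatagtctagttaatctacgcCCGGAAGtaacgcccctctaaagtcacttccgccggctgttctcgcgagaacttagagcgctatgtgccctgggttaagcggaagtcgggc
Sirt6: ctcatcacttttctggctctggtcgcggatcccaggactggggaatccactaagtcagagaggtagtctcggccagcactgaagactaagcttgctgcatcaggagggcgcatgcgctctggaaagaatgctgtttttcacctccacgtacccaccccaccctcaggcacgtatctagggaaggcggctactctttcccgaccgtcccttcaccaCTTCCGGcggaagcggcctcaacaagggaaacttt
Nol10: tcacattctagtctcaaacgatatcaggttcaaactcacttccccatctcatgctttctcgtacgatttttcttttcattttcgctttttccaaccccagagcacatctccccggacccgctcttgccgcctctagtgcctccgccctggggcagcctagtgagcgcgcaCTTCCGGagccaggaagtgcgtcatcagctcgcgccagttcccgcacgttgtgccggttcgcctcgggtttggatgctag
Per1: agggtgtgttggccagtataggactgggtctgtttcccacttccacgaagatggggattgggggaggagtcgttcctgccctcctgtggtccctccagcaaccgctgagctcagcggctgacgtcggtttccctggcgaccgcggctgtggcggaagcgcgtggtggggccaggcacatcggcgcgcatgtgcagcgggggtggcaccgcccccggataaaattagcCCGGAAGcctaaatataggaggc
Mllt3: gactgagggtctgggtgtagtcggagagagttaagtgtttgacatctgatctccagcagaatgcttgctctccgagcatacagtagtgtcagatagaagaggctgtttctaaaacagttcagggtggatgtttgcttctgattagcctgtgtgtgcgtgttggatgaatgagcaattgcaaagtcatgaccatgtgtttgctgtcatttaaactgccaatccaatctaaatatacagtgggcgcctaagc

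In these windows the core lay 91 to 85 bases before the start site in Rps6, 35 to 29 in Sirt6, 80 to 74 in Nol10 and 23 to 17 in Per1. A match is a run of letters and not a shown binding site. Promoter windows of 300 bases, reaching from upstream into the start of the gene, were searched on both strands for the 5316 of 14154 genes whose RefSeq window lay under a tested promoter peak. The ETS core stood in 22.4% of the 1926 windows under a peak that fell, in 15.9% of all 5316 and in 8.86% of all 32851 RefSeq windows. Of the 27 windows under a peak that rose, 3 held it (11.1%). The cAMP response element TGACGTCA was in 4.31%, 2.99% and 1.79% of the same sets, and the GC box GGGCGG in 51.7%, 49.1% and 35.7%. The TATA box TATAAA went the other way, with 7.37% under fallen peaks, 8.48% under all tested promoter peaks and 13.6% of all windows. Split into 4 equal classes of rising GC content, the windows lay under a fallen peak in 28.6%, 41.5%, 41.7% and 33.1% of cases, so the share that fell was highest at intermediate GC content.

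When unshocked mice received CI-994, most of the promoter peaks that passed the threshold fell, while outside promoters rises and drops were about equally many. Most peaks of either kind did not pass. By edgeR's quasi-likelihood test with a Benjamini-Hochberg adjusted p under 0.05, 12357 of 144014 peaks passed (8.58%), of which 3928 rose (2.73% of all peaks) and 8429 fell (5.85%), and 33345 had an unadjusted p under 0.05. The median size among called peaks was 0.64 on the log2 scale for rises and 0.74 for drops, and 7.43% of rises and 23.8% of drops went beyond a log2 change of 1. All 3 drug libraries lay outside the range of the 3 vehicle libraries at 96.7% of rises and 92.1% of drops, where 12.6% of all peaks were apart upwards and 13.3% downwards. The number of calls rests on single libraries. Without Veh-Context replicate 3 the counts were 1112 rises and 3518 drops, without HDACi-Context replicate 2 they were 1284 and 4536, without HDACi-Context replicate 3 they were 1711 and 5075, and without Veh-Context replicate 2 the rises numbered 2541. These 4 libraries recur below wherever a count is said to move. The rises made up 31.8% of calls, and this share was 15.1% when libraries were scaled on peaks of the control state, 42.3% with loess offsets and 49.0% with library totals.

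The shares of counts, which need no scaling between libraries, differed as well. Promoter peaks, meaning those whose edge lay within 1000 bp of the transcription start site named for them, took 21.7%, 21.4% and 22.5% of all counts with vehicle and 19.6%, 19.1% and 18.3% with the drug. The means were 21.9% ± 0.552 and 19.01% ± 0.659 (SD, n = 3 each), and the groups did not overlap. For 3 libraries against 3, the two-sided exact permutation test gave p = 0.1, the smallest it can give, with an adjusted p of 0.122 over the 11 measures of this kind. The same p values held for the other shares named in this paragraph except the last. Active-enhancer peaks went from 47.6% ± 0.830 to 45.0% ± 1.29, a difference nearly as large as that of promoter peaks. Peaks of the strong-promoter state went from 10.4% ± 0.266 to 8.37% ± 0.110 and those of the primed-enhancer state from 18.1% ± 0.433 to 20.9% ± 0.463. Introns of genes longer than 500 kb went from 4.75% ± 0.155 to 5.48% ± 0.303, while introns of genes up to 20 kb held 11.2% ± 0.101 and 11.3% ± 0.233 (exact permutation p = 0.7).

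**Figure D1:**
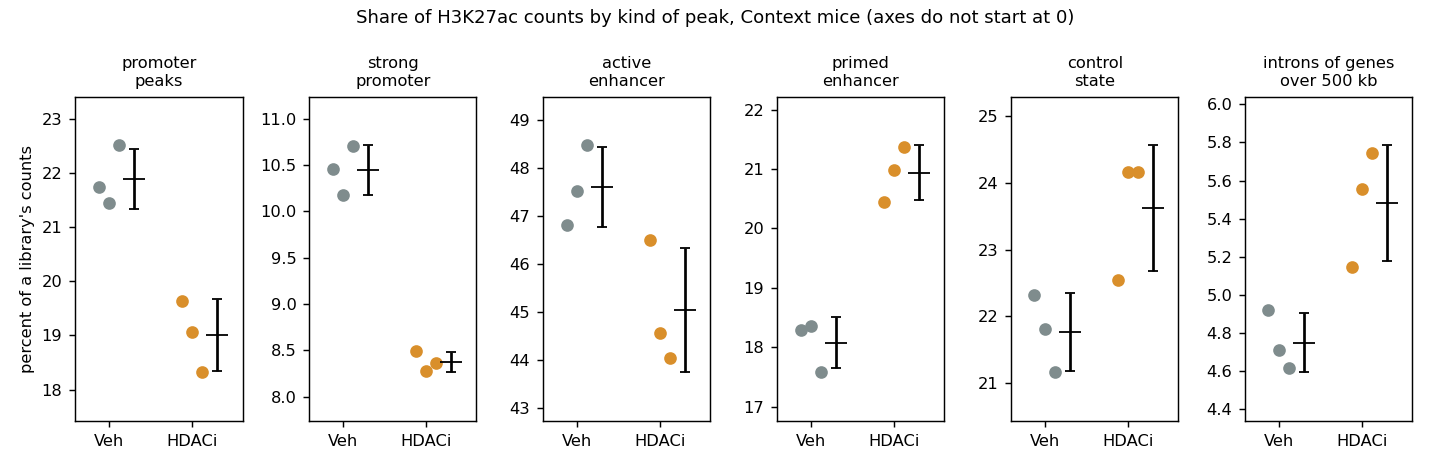
Percent of each library's counts (vertical axis, not starting at 0) in 6 kinds of peak, for 3 Veh-Context and 3 HDACi-Context libraries; points are libraries, and the bar with caps is the mean and SD. The groups do not overlap in any of the 6 panels, with promoter peaks at 18.3% to 19.6% with the drug and 21.4% to 22.5% with vehicle.

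The changes differed between the deposited chromatin states. Strong-promoter peaks leaned towards drops: 3912 of 15611 (25.1%) were lower and 31 were higher, with a median log2 change of -0.39. Active-enhancer peaks leaned the same way, with 2950 drops and 564 rises among 41914 and a median of -0.09; those drops were 5058, 1492, 1550 and 1023 without HDACi-Context replicate 1, 2 or 3 or Veh-Context replicate 3. Primed-enhancer peaks, as a class the enhancers that carry H3K4 methylation with little acetylation, rose more often than they fell, with 1883 rises (5.56%) and 357 drops among 33866 and a median of 0.14. The medians of these 3 states kept their sign under every scaling tried, from -0.48 to -0.33, from -0.18 to -0.03 and from 0.05 to 0.20. The state named control, whose definition is not given, had 1387 rises (344 without Veh-Context replicate 3, 352 and 596 without HDACi-Context replicate 2 or 3, 852 without Veh-Context replicate 2, 2217 without HDACi-Context replicate 1) and 845 drops among 46429, but its median of 0.08 turned to -0.01 under one scaling. Repressed regions had 63 rises and 358 drops among 6113. With Veh-Context replicate 3 left out, repressed regions had 12 rises and 151 drops, active enhancers 152 rises, primed enhancers 102 drops and the control state 310 drops; without HDACi-Context replicate 2 these were 15, 140, 209, 124 and 340, and without HDACi-Context replicate 3 they were 22, 213, 216, 126 and 434. Without HDACi-Context replicate 1 repressed regions had 102 rises, primed enhancers 769 drops and the control state 1321 drops. Without Veh-Context replicate 2 active enhancers had 334 rises and primed enhancers 218 drops, and without Veh-Context replicate 1 repressed regions had 29 rises. The 31 strong-promoter rises became 54 once HDACi-Context replicate 1 was dropped, 10 and 6 once its replicates 2 and 3 were, and 20 and 6 once Veh-Context replicates 2 and 3 were. The larger counts also depended on a few libraries: strong-promoter drops were 1927 without Veh-Context replicate 3 and 2434 without HDACi-Context replicate 2. Primed-enhancer rises were 598, 698 and 871 without Veh-Context replicate 3, HDACi-Context replicate 2 and HDACi-Context replicate 3.

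State and position each went with the change. Among strong-promoter peaks, those at a start site had a median of -0.42 and those elsewhere one of -0.27. Among active-enhancer peaks the medians were -0.28 at start sites and -0.08 elsewhere, and 21.7% against 5.76% fell. Primed-enhancer peaks at start sites had a median of -0.03 and those elsewhere 0.15, with 3.75% and 5.74% rising. Peaks of the same state thus sat lower at promoters than away from them in each of these 3 states.

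**Figure D2:**
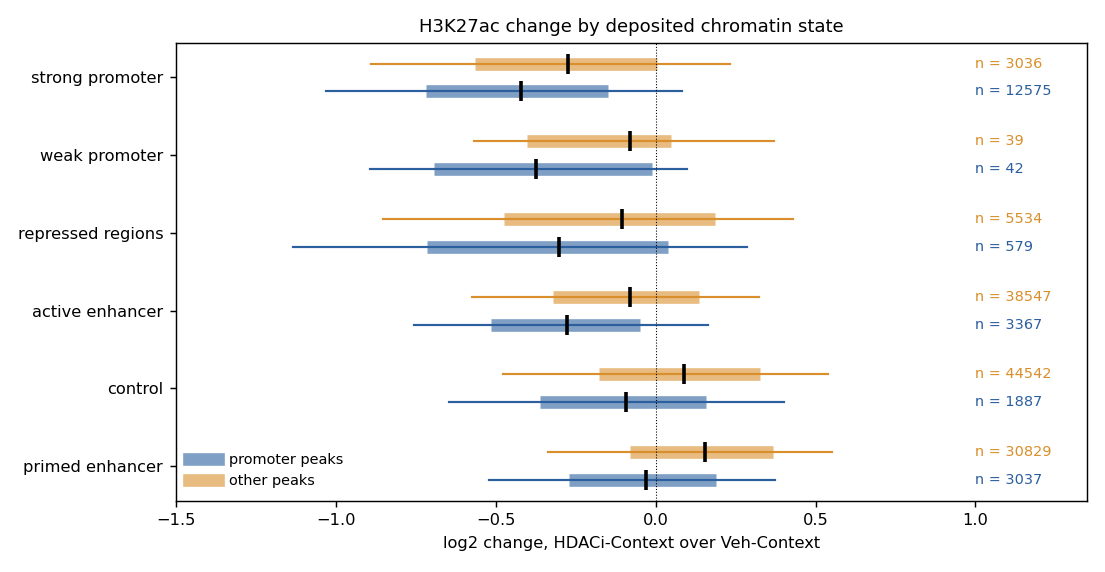
Fitted log2 change of HDACi-Context over Veh-Context (horizontal axis) for peaks of each deposited chromatin state, split into promoter peaks and other peaks; the black tick is the median, the box holds the middle 50 percent and the line runs from the 10th to the 90th percentile of peaks. Strong-promoter peaks at promoters sit lowest, with a median of -0.42, and primed-enhancer peaks away from promoters sit highest, with a median of 0.15.

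The share of drops was highest at the start site itself and declined with distance. Peaks that covered the start site fell in 34.4% of 5907 cases and had a median of -0.39. Those with an edge 1 to 1000 bp away fell in 16.3% of 15580 cases, and those 1000 to 5000 bp away in 3.91% of 12876. Beyond 500000 bp, 0.916% of 1747 peaks fell and 3.49% rose, with a median of 0.13. By the deposited place, 28.1% of 395 peaks in 5′ UTRs and 10.2% of 2549 exonic peaks fell, against 4.17% of intronic peaks, of which 3.32% rose. In all, 4573 of 21487 promoter peaks fell (21.3%) and 197 rose (0.917%), and of the 122527 other peaks 3856 fell (3.15%) and 3731 rose (3.05%). Without Veh-Context replicate 3, 2188 promoter peaks fell and 53 rose, and without HDACi-Context replicate 2 these were 2834 and 64. Of the other peaks, 1330 fell and 1059 rose without the former, and 1702 and 1220 without the latter.

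Promoters that rose and promoters that fell had different shapes. The promoter peaks that rose had a median width of 4256 bp and those that fell one of 1665 bp, where the median of all promoter peaks was 1392 bp. Over 5 classes of level, promoter peaks were called lower in 8.63% of cases in the lowest class and 30.4% in the highest, while the median log2 change ran the other way, from -0.48 in the lowest to -0.24 in the highest. The power of the test grows with the level. Short genes lost more than long ones: the chosen promoter fell in 28.0% of 6675 genes up to 20 kb long, with a median of -0.40, and in 15.7% of 191 genes over 500 kb, with a median of -0.16.

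Inside genes, the rises followed gene length. Of intronic peaks away from promoters, 3.59% rose and 2.50% fell over all 73189 whose gene has a RefSeq length. In genes up to 20 kb 1.99% rose and 3.43% fell, in genes of 100 to 200 kb 4.26% rose and 1.82% fell, and in the 203 genes over 500 kb 7.66% rose (458 of 5979) and 0.786% fell (47). The medians were -0.03, 0.10 and 0.23, and that of the short genes changed sign with the scaling. Within the longest genes, 11.6% of 1901 primed-enhancer peaks rose and 1 fell, 7.70% of 2234 control-state peaks rose, and 3.69% of 1651 active-enhancer peaks rose. The count of 458 was 139, 167 and 214 without Veh-Context replicate 3, HDACi-Context replicate 2 and HDACi-Context replicate 3.

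**Figure D3:**
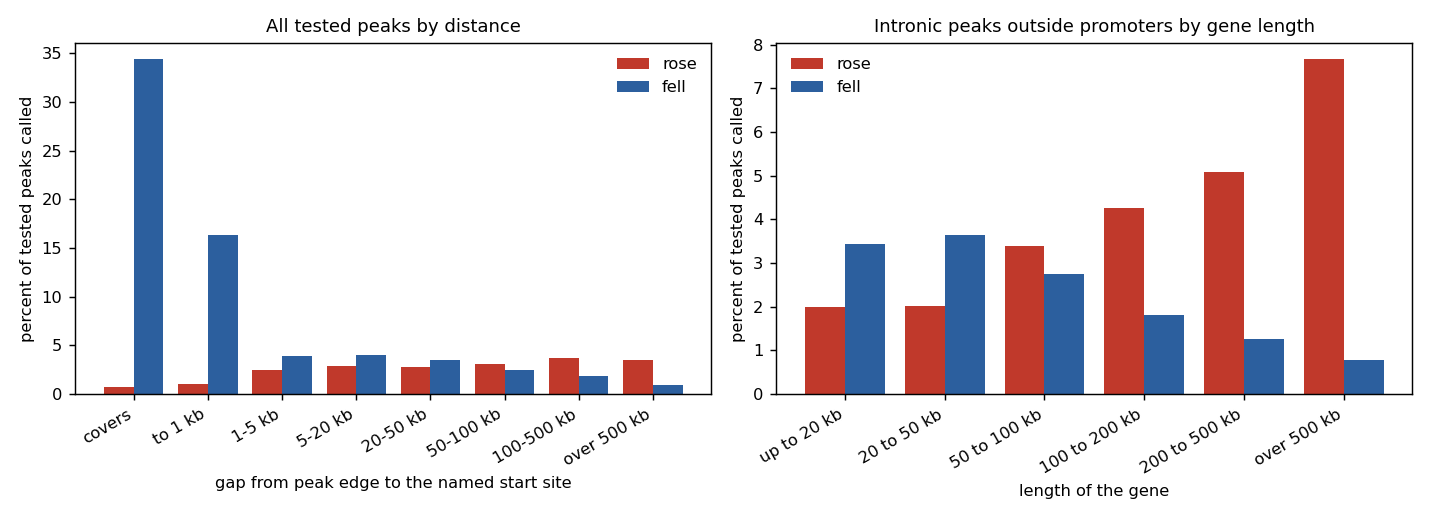
Percent of tested peaks that rose or fell, by the gap between peak edge and named start site (left) and, for intronic peaks outside promoters, by the length of the gene (right). Drops are 34.4% of peaks that cover a start site, and rises reach 7.66% in introns of genes over 500 kb.

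The most certain single drop was the promoter of Pan2, a subunit of the complex that shortens mRNA tails (chromosome 10, 128301836 to 128304673, mm10). It held 28.2, 31.2 and 28.1 CPM with vehicle and 11.5, 9.91 and 9.18 CPM with the drug. Every drug library was below every vehicle library, and the log2 change was -1.51 ± 0.13 (SE, n = 3 per group; edgeR adjusted p = 1.08e-10). The paternally expressed zinc finger gene Peg3 lost the most among the promoters with the smallest errors, from 7.62, 10.2 and 9.85 CPM to 2.50, 1.80 and 2.11 (-2.10 ± 0.19, adjusted p = 4.10e-10). Other large promoter drops were those of Cbarp (-2.28 ± 0.41), Lratd1 (-2.08 ± 0.40), the F-box gene Fbxw5 (-1.996 ± 0.23), Tbc1d17 (-1.93 ± 0.38), Tnrc18 (-1.85 ± 0.26) and the miRNA gene Mir1900 (-1.75 ± 0.19), whose peak also lies on Icam5. In several of these the vehicle replicate 1 stood below the other vehicle libraries, as at Cbarp with 3.66, 7.80 and 7.50 CPM. The drop of Pgs1, of cardiolipin synthesis (-1.94 ± 0.51, adjusted p = 0.0460), was lost under 7 of the alternatives.

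Some drops lay in strong-promoter peaks far from the start site named for them. A peak named for the zinc finger gene Zbtb43 but at -74918 bp, upstream of its start (chromosome 2, 33542882 to 33544019) went from 18.5, 17.5 and 17.8 CPM to 6.60, 5.62 and 6.19 (-1.55 ± 0.14). Peaks named for Zfp324 (-1.55 ± 0.19), the histone chaperone gene Anp32e (-1.51 ± 0.20) and Cbx8 of the polycomb family (-1.67 ± 0.31) fell in the same way. The drop with the smallest p among active-enhancer peaks, though not the largest in size, was a domain of 14909 bp named for Rexo1, an exonuclease gene. It went from 97.4, 99.8 and 123 CPM to 54.7, 49.1 and 39.6 (-1.16 ± 0.12, edgeR adjusted p = 4.47e-09). It lies over Klf16 and Rexo1, and the groups were apart.

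Lists of histone, ribosome and mitochondrial genes had shares of fallen promoters above that of all genes. Over 14154 genes with a promoter peak, 3432 fell (24.2%) and 150 rose (1.06%), with a median of -0.31; the drops were 1714 when Veh-Context replicate 3 was left out and 2189 when HDACi-Context replicate 2 was. Among the histone cluster genes, which encode the replication-dependent histones, 22 of 45 promoters fell and none rose, with a median of -0.61. Hist2h2bb went from 12.3, 12.1 and 12.8 CPM to 5.35, 4.98 and 5.51 (-1.23 ± 0.15) and Hist1h4d from 27.8, 21.2 and 28.3 to 14.9, 14.1 and 10.3 (-0.99 ± 0.14). Reads of near-identical histone genes may have been split between copies. The list kept 17 to 21 drops when any single library was left out.

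In the 3 ribosome lists every promoter that passed fell, and most promoters did not pass. Rises were rare everywhere, since 1.06% of all promoters rose and 24.2% fell. Of 76 promoters of cytosolic ribosomal proteins 25 fell and none rose, of 55 ribosome assembly genes 22 fell, and of 69 mitochondrial ribosomal proteins 28 fell, with medians of -0.42, -0.54 and -0.52. Rpl10 went from 21.8, 19.7 and 20.5 CPM to 7.72, 6.55 and 7.55 (-1.51 ± 0.14), which is a drop in each drug library below every vehicle library. Rps6 went from 13.1, 13.5 and 15.1 to 6.95, 4.93 and 4.35 (-1.37 ± 0.16). The nucleolar genes Nol10 (-1.22 ± 0.17) and Pes1 (-1.11 ± 0.15) and the mitochondrial ribosomal genes Mrpl11 (-1.03 ± 0.17) and Mrps11 (-0.95 ± 0.16) fell as well. Reads of ribosomal protein genes can also come from their processed copies. Without Veh-Context replicate 3, the 3 counts were 15, 16 and 8, and without HDACi-Context replicates 2 or 3 the mitochondrial ribosomal count was 16 or 17.

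Promoters of energy metabolism and protein handling that passed also fell, where 24.2% of all promoters fell and 1.06% rose. In the respiratory chain and ATP synthase list 26 of 73 promoters fell (Ndufa9, -0.97 ± 0.15; Ndufb3, -0.93 ± 0.14), in glycolysis 8 of 22 (Gapdh, -0.89 ± 0.16; Aldoa, -0.84 ± 0.20), among translation factors and tRNA synthetases 24 of 79 (Eif3b, -1.16 ± 0.14; Qars, -1.08 ± 0.17), and among proteasome subunits 12 of 42 (Psmf1, -1.18 ± 0.20). None of their promoters rose. Cholesterol and isoprenoid synthesis had 7 of 26 drops and chaperones 12 of 47 (Hspa4, -0.93 ± 0.15), shares near the 24.2% of all genes. Leaving out Veh-Context replicate 3 brought glycolysis to 3, translation to 14, proteasome to 3 and chaperones to 6. Glycolysis was also at 4 and 2 without HDACi-Context replicate 2 or 3, and the proteasome at 7 without the latter. Splicing and RNA-binding genes went both ways, with 17 of 59 promoters down (Snrpd3, -1.33 ± 0.18) and 4 up, among them Hnrnpk (0.61 ± 0.15) and Hnrnpd (0.57 ± 0.14); the 4 rises were 0, 1 and 2 without Veh-Context replicate 3, HDACi-Context replicate 2 and Veh-Context replicate 2.

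In the lists of the acetylation machinery the shares of fallen promoters were a little below the 24.2% of all genes, on small counts. Of all promoters 1.06% rose. Among HDACs and corepressors 7 of 42 promoters fell (16.7%) and none rose; the 7 were 3 without Veh-Context replicate 3 and 4 without HDACi-Context replicate 2 or Veh-Context replicate 1. Hdac3, a target of CI-994, went from 10.3, 10.2 and 11.1 CPM to 6.19, 4.93 and 4.76 (-0.999 ± 0.16, adjusted p = 2.50e-05), with the groups apart. Hdac8 fell by less (-0.64 ± 0.21, adjusted p = 0.0437), a call lost in 8 alternatives. The other main targets did not pass: Hdac1 had a log2 change of -0.37 ± 0.15 (adjusted p = 0.108; 0.0353 with TMM over control-state peaks, where it passed) and Hdac2 one of 0.39 ± 0.19 (adjusted p = 0.214). The sirtuin gene Sirt6 went from 7.39, 8.24 and 11.1 CPM to 4.31, 3.71 and 2.58 (-1.34 ± 0.18).

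Of the acetyltransferases and acetyl readers, 7 of 36 promoters fell (19.4%) and 1 rose; the drops were 2 without Veh-Context replicate 3 and 4 without HDACi-Context replicate 2. Crebbp and Ep300, which encode CBP and p300, had log2 changes of 0.06 ± 0.20 and -0.23 ± 0.15 and did not pass, nor did Creb1, their DNA-binding partner (0.05 ± 0.17). Trrap (-0.75 ± 0.18) and Phip (-0.57 ± 0.13) fell. Mllt3 rose from 3.58, 5.74 and 4.12 CPM to 5.91, 6.84 and 6.39 (0.57 ± 0.19, adjusted p = 0.0495), and this call was lost in 9 alternatives. Away from promoters, 29 of 309 peaks named for this list rose (9.39%) and 3 fell, where 3.05% of all such peaks with a gene name rose and 3.14% fell; the 29 were 8 without Veh-Context replicate 3, 11 without HDACi-Context replicate 2 and 14 without HDACi-Context replicate 3.

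Histone methylation genes had 19 drops and 1 rise among 51 promoters (37.3% down). Setd1b, a methyltransferase for H3K4, went from 32.4, 31.7 and 33.3 CPM to 13.3, 15.0 and 12.0 (-1.27 ± 0.12, adjusted p = 2.04e-09). Eed, a core subunit of the polycomb methyltransferase complex, went from 14.8, 15.3 and 15.3 to 7.65, 7.36 and 7.69 (-0.998 ± 0.14), and the spread within either group was small beside that difference. Setd2, the H3K36 methyltransferase, was the rise (0.55 ± 0.12). DNA methylation genes had 8 of 21 drops (Mbd6, -1.21 ± 0.18; Zbtb38, -0.59 ± 0.10) and remodellers 12 of 39 (Ruvbl2, -1.33 ± 0.20; Actl6b, the neuronal subunit of the BAF complex, -1.04 ± 0.16). Without Veh-Context replicate 3 these 3 lists had 10, 4 and 6 drops. Histone methylation had 12 without HDACi-Context replicate 2 or 3, and DNA methylation 4 and 5. Imprinted genes had 6 drops and 1 rise (Rasgrf1, 0.45 ± 0.11) among 34, with 3 drops without HDACi-Context replicate 2 and no rise without Veh-Context replicate 3.

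Synaptic genes combined falling promoters with rising inner sites. Among glutamate receptors and postsynaptic density genes, 16 of 43 promoters fell (37.2%) and 1 rose, while 94 of their 1460 other peaks rose (6.44%) and 26 fell (1.78%). Grin1, the obligatory NMDA receptor subunit, went from 10.5, 11.3 and 11.9 CPM to 6.33, 4.06 and 3.20 (-1.32 ± 0.18). All 3 drug libraries lay below every vehicle library. Dlgap2, a postsynaptic scaffold, was the rise (0.73 ± 0.20), a call lost after thinning and without HDACi-Context replicate 2, Veh-Context replicate 2 or Veh-Context replicate 3, and one of its intronic peaks also rose, from 14.8, 14.3 and 15.1 CPM to 24.0, 27.2 and 28.8 (0.85 ± 0.12). The rises outside promoters were 33, 32, 44 and 61 without Veh-Context replicate 3, HDACi-Context replicate 2, HDACi-Context replicate 3 and Veh-Context replicate 2. The drops outside promoters were 56, 17 and 11 without HDACi-Context replicate 1, HDACi-Context replicate 2 and Veh-Context replicate 3.

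Other neuronal lists differed in their share of rises outside promoters, where 3.05% of all such peaks rose. Peaks away from promoters rose in 160 of 2301 cases for cell adhesion and axon guidance (6.95%), in 27 of 313 for GABA receptors (8.63%), in 62 of 1108 for voltage-gated channels (5.60%) and in 34 of 603 for presynaptic release (5.64%), but in 2.74% for immediate early genes and 2.43% for Wnt, Notch and TGF-beta genes. Promoters of the former 4 lists fell in 19 of 77, 2 of 15, 9 of 49 and 8 of 41 cases, against 24.2% of all genes. Gene length went with the rises over all genes, and its part in the list counts was not tested. Without Veh-Context replicate 3 the 4 counts of rises were 40, 8, 19 and 10, without HDACi-Context replicate 2 they were 48, 13, 24 and 13, and without HDACi-Context replicate 3 they were 68, 11, 30 and 17. Adhesion was at 251 and 97 without HDACi-Context replicate 1 and Veh-Context replicate 2, and GABA receptors at 44 and 17 without HDACi-Context replicate 1 and Veh-Context replicate 1. Promoter drops of adhesion, channel and presynaptic genes were 7, 3 and 1 without Veh-Context replicate 3, and HDACi-Context replicate 2 left out gave 10, 5 and 3. They were 4 for channels and 2 for presynaptic genes without HDACi-Context replicate 3, and 11 and 5 for adhesion and presynaptic genes without Veh-Context replicate 2.

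**Figure D4:**
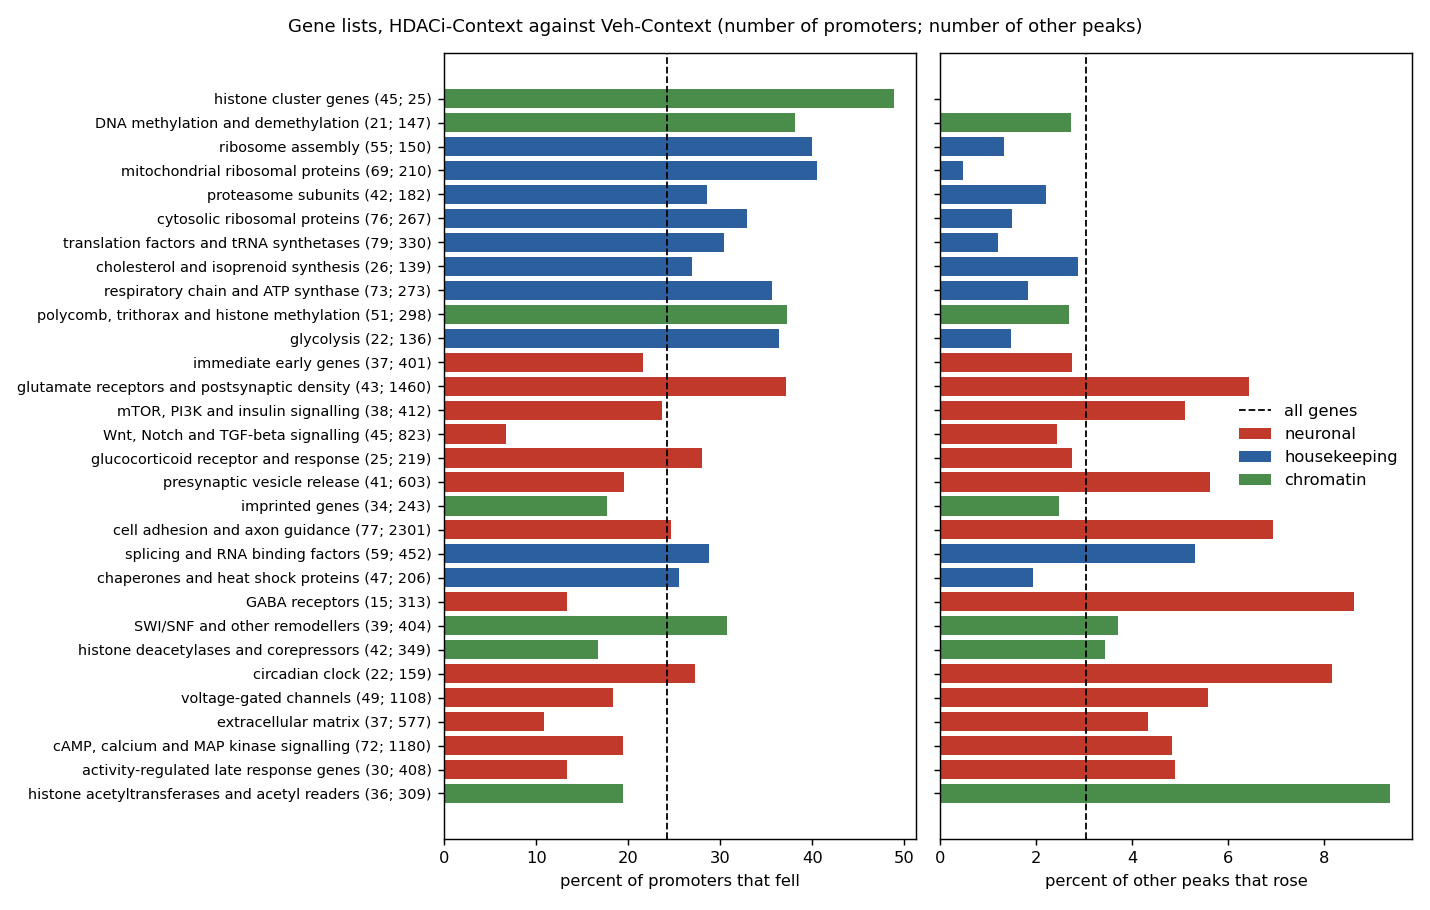
Percent of promoters that fell (left) and of other peaks that rose (right) for the gene lists reported here that are no cell type markers, ordered by the median log2 change of their promoters, with the number of promoters and of other peaks in brackets and the value over all genes as a dashed line. Histone cluster genes reach 48.9% fallen promoters, and acetyltransferases (9.39%) and GABA receptors (8.63%) have the highest shares of rising other peaks.

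Among named members of these lists, the vesicular glutamate transporter gene Slc17a7 fell from 72.9, 81.3 and 95.6 CPM to 48.3, 42.1 and 27.9 (-1.08 ± 0.14). The guidance receptor gene Nrp2 (-1.14 ± 0.14), the channel genes Kcnip3 (-0.74 ± 0.12) and Cacnb4 (-0.68 ± 0.12), the GABA receptor gene Gabrd (-0.59 ± 0.13) and the Rac regulators Dock9 (-0.71 ± 0.11) and Chn1 (-0.53 ± 0.11) fell too. Rising promoters were fewer and broad. Cdc42, a small GTPase of the actin cytoskeleton, went from 18.7, 13.2 and 16.5 to 23.9, 27.2 and 25.6 (0.64 ± 0.13), with no overlap between the groups. The kinase gene Rock2 (0.50 ± 0.11), the calmodulin gene Calm2 (0.50 ± 0.11) and the exchange factor gene Rasgrf1 (0.45 ± 0.11) rose as well, while the cAMP-dependent kinase subunit Prkar1a fell (-0.95 ± 0.13). In the mTOR and insulin list Tsc1, the brake on mTOR, fell from 8.44, 7.66 and 7.94 CPM to 3.20, 2.38 and 3.40 (-1.44 ± 0.18), whereas Sesn1 rose (0.41 ± 0.13); the rise was lost without Veh-Context replicate 2 or 3 or HDACi-Context replicate 2 or 3.

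The largest rises above the level floor of 3.30 CPM outside promoters were in primed-enhancer or control-state peaks. An intronic primed enhancer of Deptor, an inhibitor of mTOR (chromosome 15, 55141457 to 55143547), went from 3.66, 3.09 and 3.53 CPM to 7.79, 8.23 and 9.79 (1.30 ± 0.19, adjusted p = 8.23e-06). The groups were apart there, which the rule that named this peak required. A primed enhancer in the solute carrier gene Slc7a14 had the smallest p of its state, from 15.2, 16.0 and 15.1 CPM to 26.4, 37.6 and 30.1 (1.03 ± 0.14). Further rises were named for Rhot1 of mitochondrial transport (1.24 ± 0.25), Sowahb (1.22 ± 0.17), the potassium channel gene Kcnt2 (1.21 ± 0.26), Mid2 (1.19 ± 0.21) and Sh3rf2 (1.00 ± 0.15), and the rise with the smallest p among repressed-region peaks was named for Filip1 (1.02 ± 0.18). The peak named for Gm8179 (1.19 ± 0.22) lies within Nrg1, a ligand of the ErbB receptors. At promoters the largest rises were those of Gm13749 (1.15 ± 0.22), Fjx1 (1.01 ± 0.18) and the synapse gene Syndig1 (0.91 ± 0.22).

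The 3928 rises were spread over 2062 named genes, of which 142 had 5 or more. The genes with the most rises were long. Auts2, a transcriptional regulator linked to autism and 1105888 bp long, had 26 rises among 121 peaks (chromosome 5, 132220069 to 133320833). Summed over its 119 peaks outside the promoter, the level was 559.9, 565.4 and 546.8 CPM with vehicle and 674.3, 757.4 and 754.0 CPM with the drug. The means were 557 ± 9.59 and 729 ± 47.0 CPM (SD, n = 3 each), 107 of the 119 peaks had a positive log2 change, and 25 of the 26 rises were primed-enhancer or control-state peaks. Its own promoter fell from 3.28, 5.30 and 5.51 CPM to 2.64, 1.22 and 1.02 (-1.52 ± 0.26). The number of rises was 9 without HDACi-Context replicate 2, 10 without Veh-Context replicate 3, 11 without Veh-Context replicate 1 and 13 without HDACi-Context replicate 3.

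The same division between promoter and other peaks occurred in the genes named next. All were picked for a fallen promoter with the most rises elsewhere, so the division was fixed by that choice. Dlg2, a postsynaptic scaffold of the PSD-95 family, had 24 rises among 236 peaks outside the promoter, whose sum went from 1968 ± 81.7 to 2244 ± 166 CPM. Its promoter went from 50.1, 51.7 and 48.0 CPM to 31.4, 30.7 and 32.1 (-0.67 ± 0.11). Grin2b, an NMDA receptor subunit, had 8 rises among 70 such peaks and a promoter that went from 7.84, 12.1 and 14.1 CPM to 5.01, 4.69 and 4.22 (-1.28 ± 0.18). The sum over the 70 peaks was 783.8, 749.5 and 751.0 CPM with vehicle and 861.7, 916.3 and 891.3 CPM with the drug, with no overlap. The 8 rises were 0 without HDACi-Context replicate 2, HDACi-Context replicate 3 or Veh-Context replicate 3, and 3 without Veh-Context replicate 1 or 2. Dlg2 had 6, 7, 5 and 12 without HDACi-Context replicate 2, HDACi-Context replicate 3, Veh-Context replicate 3 and Veh-Context replicate 2. Epha6, Ppfia2, Cnksr2, Gpm6a and Magi2 also joined a fallen promoter with 8 or 9 rises, which were 2 to 4 without HDACi-Context replicate 2 and 3 or 4 without Veh-Context replicate 3. Without HDACi-Context replicate 3 they had 3, 3, 2, 4 and 4 in that order, without Veh-Context replicate 2 they had 4, 4, 4, 5 and 5, Epha6 and Ppfia2 had 4 without Veh-Context replicate 1, and Magi2 had 16 without HDACi-Context replicate 1. Over all genes, however, this pairing was not more frequent at fallen promoters: of 2647 genes with a fallen promoter and other peaks, 233 had a rise elsewhere (8.80%), against 1278 of 8834 (14.5%) whose promoter did not pass.

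Celf2 (26 rises of 191 peaks), Dlgap1 (23 of 122), Dab1 (21 of 185), Csmd1 (18 of 107) and Dscam (14 of 68) were further genes with many rises, and without Veh-Context replicate 3 they had 7, 9, 7, 8 and 4. Without HDACi-Context replicate 2 they had 8, 10, 7, 9 and 5. Without HDACi-Context replicate 3 Celf2, Dlgap1, Dab1 and Dscam had 12, 13, 10 and 7, Dab1 had 34 without HDACi-Context replicate 1, and Dscam had 8 without Veh-Context replicate 1. No promoter of these genes was called lower. That of Dab1 rose (0.35 ± 0.12, edgeR adjusted p = 0.0460). Those of Celf2 (-0.31 ± 0.11), Dlgap1 (0.06 ± 0.10), Csmd1 (0.27 ± 0.12) and Dscam (-0.28 ± 0.11) did not pass.

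**Figure D5:**
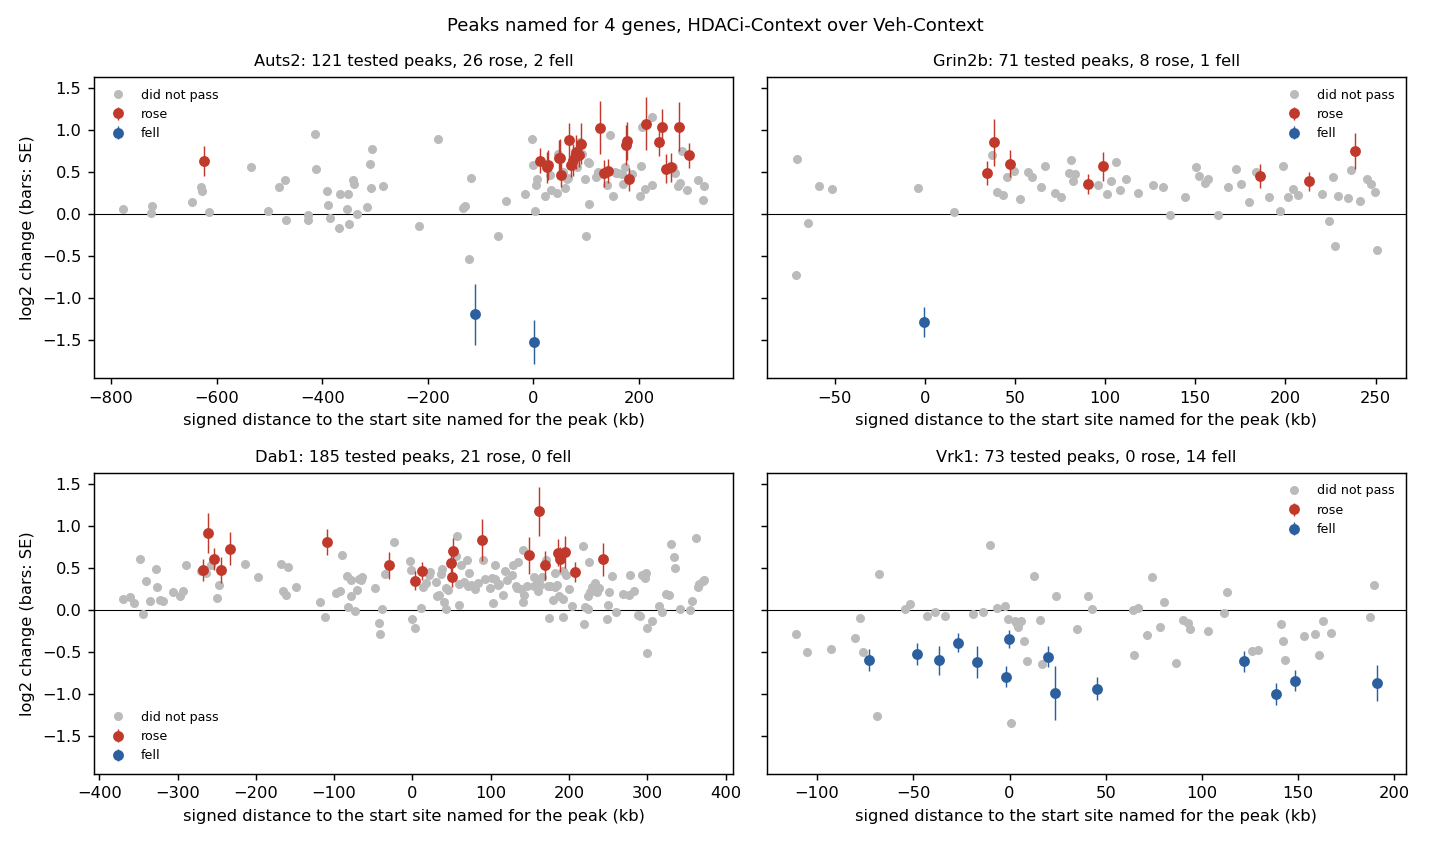
Log2 change of each tested peak (vertical axis, bars are SE for called peaks) against its signed distance in kb from the start site named for it, for Auts2, Grin2b, Dab1 and Vrk1; red peaks rose, blue peaks fell and grey ones did not pass. In Auts2 and Grin2b the start-site peak lies below 0 (-1.52 and -1.28) while the 26 and 8 rises lie away from it, in Dab1 the 21 called peaks lie above 0, and in Vrk1 all 14 called peaks lie below.

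A smaller set of loci lost acetylation over wide stretches. Vrk1, a nuclear kinase gene of 68180 bp, is the name given to 73 peaks on chromosome 12 between 105898618 and 106227785, of which 14 fell and none rose. The sum of its 69 peaks outside promoters was 499 ± 21.9 CPM with vehicle and 377 ± 21.7 CPM with the drug (SD, n = 3 each). A peak 138397 bp from its start went from 25.2, 24.0 and 26.2 CPM to 14.0, 11.9 and 12.0 (-1.001 ± 0.13). In Disc1, a scaffold gene tied to psychiatric illness, 8 of 48 peaks fell, and the sum of 46 went from 604 ± 31.7 to 449 ± 53.6 CPM. Lmf1 (8 of 17), Capn2, a calpain protease gene (7 of 16), Tbc1d22a (10 of 82) and 1700012A03Rik (10 of 63) were the others. The drops of Vrk1 were 7 without Veh-Context replicate 3 and 9 without HDACi-Context replicate 2, and Tbc1d22a had 4 without the former. Lmf1 had 1, 1, 3 and 4 without Veh-Context replicate 3, HDACi-Context replicate 2, HDACi-Context replicate 3 and Veh-Context replicate 2, and Capn2 had 2, 1 and 2 without the first 3 of these. Disc1 had 3 and 2, and 1700012A03Rik 4 and 3, without Veh-Context replicate 3 and HDACi-Context replicate 3, and the latter had 5 without Veh-Context replicate 1.

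Drops also lay at and near Prox1, the identity gene of granule cells. Its peak of 22494 bp, of the repressed-region state (chromosome 1, 190152741 to 190175234), had a log2 change of -0.66 ± 0.11 (adjusted p = 4.85e-05), with the groups apart. Further along chromosome 1, between 190297290 and 190653910, 8 of the 47 peaks named for the noncoding gene Gm29678 fell and none rose, and their sum went from 363.3, 363.2 and 366.8 CPM to 272.5, 304.3 and 258.2. Those 8 were 4 without Veh-Context replicate 3 and 5 without HDACi-Context replicate 3 or Veh-Context replicate 1. Rfx3, a ciliary transcription factor, was mixed, with 9 drops and 5 rises among 100 peaks. Its drops were 5, 3 and 2 without HDACi-Context replicate 1, HDACi-Context replicate 3 and Veh-Context replicate 1, and its rises 12, 2 and 1 without HDACi-Context replicate 1, HDACi-Context replicate 2 and Veh-Context replicate 3. Of its peaks, 1 intergenic active enhancer fell from 64.4, 52.4 and 60.2 CPM to 33.6, 39.3 and 35.6 (-0.71 ± 0.12), and 1 intronic control-state peak rose from 52.3, 48.6 and 47.3 to 67.4, 87.3 and 78.8 (0.66 ± 0.12); both were picked after their values were seen.

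Activity-dependent genes, the fast transcription factors and effectors that neurons switch on when stimulated, did not stand out from other promoters. Of 37 immediate early gene promoters 8 fell (21.6%) and 1 rose, against 24.2% of all genes; the drops were 4 without HDACi-Context replicate 2 and 5 without Veh-Context replicate 3. Junb went from 9.11, 9.27 and 9.19 CPM to 4.52, 4.46 and 3.67 (-1.12 ± 0.17) and Per1 from 50.5, 44.9 and 56.3 to 30.5, 25.7 and 20.4 (-0.99 ± 0.12). Fos had the rise, from 3.28, 5.30 and 4.63 to 6.60, 6.61 and 6.33 (0.60 ± 0.19, adjusted p = 0.0335), a call lost in 7 alternatives. Arc (-0.44 ± 0.26, adjusted p = 0.355) and Bdnf (0.10 ± 0.12, adjusted p = 0.654) did not pass. Late response genes had 4 drops among 30 (13.3%) and a median of -0.13, including the neurite growth factor Nrn1, from 87.0, 97.0 and 98.5 CPM to 58.9, 54.5 and 50.7 (-0.78 ± 0.10).

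The clock output gene Dbp stood out among circadian genes, of which 6 of 22 promoters fell (27.3%, against 24.2% of all genes) and 13 of 159 other peaks rose (8.18%, against 3.05%). Those 13 were 2, 4, 5, 8 and 7 without Veh-Context replicate 3, HDACi-Context replicate 2, HDACi-Context replicate 3, Veh-Context replicate 1 and Veh-Context replicate 2. Dbp went from 30.2, 28.4 and 35.6 CPM to 13.6, 12.1 and 10.8 (-1.38 ± 0.14, adjusted p = 1.93e-08), so that the highest drug library was under the lowest vehicle library by a wide margin. Glucocorticoid-response genes had 7 of 25 drops (28.0%), with Per1 again and the metallothionein gene Mt1 (-0.69 ± 0.13). Wnt, Notch and TGF-beta genes had 3 of 45 (6.67%), among them Tcf4 (-0.53 ± 0.11) and Notch1 (-0.65 ± 0.17, lost in 6 alternatives). Extracellular matrix genes had 4 of 37 (10.8%), among them Sparcl1 (-0.55 ± 0.11) and Agrn (-0.78 ± 0.17). Both shares lay below the 24.2%, and none of these promoters rose, where 1.06% of all promoters did. Without Veh-Context replicate 3, glucocorticoid-response genes had 4 drops, Wnt, Notch and TGF-beta genes 1 and matrix genes 1. Without HDACi-Context replicate 1 the last pair had 9 and 8, and without HDACi-Context replicate 3 the first had 4 and the Wnt list 1, as it had without Veh-Context replicate 2.

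Marker genes of other cell types also had lower summed promoter levels with the drug, as promoters did in general: 24.2% of all promoters fell, with a median of -0.31. Their counts of drops, which are small, lay on both sides of that share. Summed over the promoters of 10 interneuron markers, the range was 282 to 315 CPM with vehicle and 189 to 215 CPM with the drug, and 5 of the 10 fell (Cck, -0.77 ± 0.13). Prox1 was on this list as well as on that of granule cells. Its domain, with the levels given above, made up a large part of the interneuron sum and was among the 5 drops, so this sum is not one of interneurons alone. For 15 oligodendrocyte markers it was 175 to 190 and 127 to 143 CPM, with 5 drops (Mag, -1.06 ± 0.29; Mbp, -0.42 ± 0.10), for 7 precursor markers 24.1 to 28.6 and 14.4 to 21.5 CPM with 1 drop (Cspg4, -0.74 ± 0.18), and for 9 microglia markers 38.4 to 44.9 and 32.3 to 37.1 CPM with 4 drops (C1qb, -1.27 ± 0.33; Tmem119, -1.61 ± 0.46). The same ranges were 214 to 245 and 189 to 203 CPM for 14 astrocyte markers (3 drops; Aldoc, -0.62 ± 0.16), 29.5 to 32.7 and 19.5 to 26.1 CPM for 5 endothelial and mural markers (1 drop), and 84.0 to 94.2 and 71.3 to 83.4 CPM for 12 CA pyramidal markers (1 drop; Nrip3, -0.68 ± 0.17). The shares of fallen promoters were 50.0% for interneuron (Prox1 included), 44.4% for microglia, 33.3% for oligodendrocyte, 21.4% for astrocyte and 8.33% for CA pyramidal markers. Several of these calls were not stable: Tmem119 was lost in 6 alternatives, Mag, Cspg4 and Aldoc in 4 each, Mbp and Nrip3 in 3 each and C1qb in 1. The 3 astrocyte drops were 1 without HDACi-Context replicate 2 or 3 or Veh-Context replicate 3.

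Markers of the sorted cells were also lower in sum. The range was 878 to 979 CPM with vehicle and 709 to 870 CPM with the drug for 18 granule-cell markers, of which 6 fell, Plk5 among them (-0.77 ± 0.20, lost in 4 alternatives), and 369 to 422 and 289 to 330 CPM for 6 general neuron markers, of which 2 fell. The median over the granule-cell promoters was -0.23, against -0.31 over all genes. Calb1, the calcium buffer of mature granule cells, did not pass (-0.24 ± 0.14). No marker promoter rose in any list, where 1.06% of all promoters rose. The smallest deposited count in each library was 1, so the absence of a marker could not show as 0. Outside promoters 17 of 153 oligodendrocyte peaks fell and 0 rose, and for granule-cell markers 19 of 428 rose and 17 fell. The 17 oligodendrocyte drops were 29 when HDACi-Context replicate 1 was left out, 7 and 9 for its replicates 2 and 3, and 6 for Veh-Context replicate 3. The 19 granule-cell rises were 37, 6, 10 and 4 without the same libraries, and the 17 drops were 9 without HDACi-Context replicate 3 or Veh-Context replicate 3 and 11 without Veh-Context replicate 1. The promoter drops of microglia markers were 1 without any of 5 libraries (all but HDACi-Context replicate 1), those of oligodendrocyte markers 0 without Veh-Context replicate 3 or HDACi-Context replicate 2, and those of granule-cell markers 1 to 3 without Veh-Context replicates 3 or 1 or HDACi-Context replicates 3 or 1. Whether the makeup of the sorted nuclei has a part in the drops was not tested; fewer nuclei of a type and less acetylation per nucleus cannot be told apart in bulk libraries.

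In shocked mice, with their own vehicle controls, the drug effect was called at fewer peaks and was mostly of the same sign. There 696 peaks rose (0.483%) and 626 fell (0.435%). The Veh-CFC libraries of shocked mice held 7836555, 9666039 and 7222654 counts in peaks, and the HDACi-CFC libraries 14132205, 10153795 and 12434400. The part of depth in the fewer calls was not tested. At the 3928 peaks that rose in unshocked mice the median log2 change in shocked mice was 0.27, 84.2% had the same sign and 298 were called in the same direction. At the 8429 that fell it was -0.23, with 78.9% of the same sign and 488 called. Both sets were picked by their values in unshocked mice, which favours larger changes in those mice, so the sizes are not a like comparison. The intronic peaks of genes over 500 kb had 48 rises and 5 drops in shocked mice, with a median of 0.02.

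The difference between the 2 drug effects was called at 50 peaks (0.0347%) by the interaction contrast of the same model, with 16531 peaks at an unadjusted p under 0.05. At 49 of the 50 the change was lower in unshocked than in shocked mice, 44 of the 50 fell in unshocked mice, 0 rose there, and 30 were promoter peaks. Over all tested peaks 5.85% fell and 2.73% rose in unshocked mice, and 14.9% were promoter peaks. Of the genes described above, Dbp and Rexo1 were among the 50. The smallest p belonged to Naa38, named here for that reason, at -1.37 ± 0.14 in unshocked and -0.05 ± 0.13 in shocked mice. The immediate early gene Nr4a2, picked after its values were seen, went from 2.09, 3.24 and 3.97 CPM to 1.25, 0.985 and 0.748 in unshocked mice (-1.62 ± 0.30) and changed by 0.33 ± 0.21 in shocked mice; the difference was -1.95 ± 0.37 (adjusted p = 0.0368). The count of 50 was 0 without Veh-Context replicate 3, 1 without HDACi-Context replicate 2 or 3, 2 without Veh-Context replicate 2, 874 without Veh-Context replicate 1 and 3731 without HDACi-Context replicate 1. With library totals or loess offsets it was 1. Mice of a cage had the same behavioural treatment, and cage effects on this contrast were not tested.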

How the data were processed

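H3K27ac ChIP-seq libraries of NeuN-sorted dentate gyrus nuclei were compared between HDACi-Context and Veh-Context, 3 each, with groups taken from the labels. The deposited values are raw counts of reads per peak over 1 peak set shared by all 12 libraries; its columns name group and replicate but no antibody and were taken as the H3K27ac libraries. Per the submitters' processing notes, the authors worked on mm10 with HOMER 4.11, DESeq2 1.28.1, DiffBind 2.16.2, MACS2, Bowtie2 2.3.5, Trimmomatic 0.38 and SAMtools 1.9; what each did for the count table is not given in the sources used here. Gene name, distance, place and chromatin state of a peak are as deposited. Input libraries were not used here.

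Counts of all 12 libraries entered 1 model in edgeR 4.0.16 (R 4.3.3) with TMM factors, no covariate, a minimum count of 10 in the expression filter and the robust quasi-likelihood F test. Of 144154 peaks 144014 were tested. A rise or drop is a Benjamini-Hochberg adjusted p under 0.05 over all of them, and SE is the log2 change divided by the root of F. A promoter peak has an edge within 1000 bp of its named start site; for a gene with several, 1 was used. The median biological coefficient of variation was 0.131. Library sums and exact permutation tests used Python 3.11.15, pandas 2.3.3, numpy 2.4.6, SciPy 1.17.1 and statsmodels 0.14.6, and plots matplotlib 3.10.9. Scripts were tested on simulated data. Intervals and SEs cover these samples only, and PCR copies are not independent molecules. Gene lengths and promoter windows come from RefSeq tables, in which 18582 of 18808 symbols were found (98.8%); no genome sequence of the peaks was used here.

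Alternatives were library totals, DESeq2 1.42.0, loess offsets (limma 3.58.1), TMM over control-state peaks, no filter, the 6 Context libraries alone, a replicate block, thinning to the shallowest library, leaving out each library, and other definitions of a promoter peak. Those on introns of long genes were added after seeing the data. The comparison, the 39 gene lists and the rules were chosen with earlier results of these data known. Named genes are the 8 largest rises and drops of promoter and of other peaks with at least 3.30 CPM and groups apart, the 2 smallest p-values per list and direction, the 8 loci with most calls in each direction and with most rises beside a fallen promoter, the smallest p per chromatin state and direction, and a panel of Rbfox3, Prox1, Calb1, Camk2a, Creb1, Crebbp, Ep300, Hdac1, Hdac2, Hdac3, Hdac8, Fos, Arc and Bdnf; Camk2a had no promoter peak. Some genes and lists that these rules name are not reported here.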

Additional observations from a re-analysis of the deposited data

Results flagged for a closer look

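The drug effect differed between unshocked and shocked mice at 50 peaks, by the interaction contrast of the edgeR quasi-likelihood model with Benjamini-Hochberg adjustment. Among the named genes, the peak given to C430002N11Rik, an intergenic strong-promoter peak, had a log2 change of -1.44 ± 0.21 (SE, n = 3 libraries per group) in unshocked and -0.05 ± 0.20 in shocked mice, a difference of -1.38 (adjusted p = 0.0414). The promoter of Dbp, a clock output gene, had a difference of -1.02 ± 0.19 (adjusted p = 0.0368), with -0.36 ± 0.13 in shocked mice. The domain over Rexo1 had a difference of -0.84 ± 0.16, with -0.32 ± 0.11 in shocked mice. In each of these the drop was larger in unshocked mice.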

How the results depend on the processing

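Signs held where they were compared: none of the 128 named calls changed sign under any alternative run, nor did the promoter median or the shares of counts. Counts of peaks have no sign. Of the 136 named peaks, those that did not pass were compared only where an alternative called them. Of 128 named calls, 98 passed in every alternative and 101 whichever library was left out. Counts moved. The 3928 rises, 1883 primed-enhancer rises and 458 rises in introns of genes over 500 kb were 2306, 1224 and 299 with DESeq2, 2124, 1083 and 277 with TMM over control-state peaks, 6279, 2843 and 708 with library totals, and 2116, 1055 and 268 after thinning. Thinning also gave 5369 drops and 2472 strong-promoter drops. The peaks called for a difference between drug effects, 50, were 874 with DESeq2, 1564 with control-state TMM, 1 with library totals, 1 with loess offsets and 139 after thinning. The promoter median of -0.30 was -0.40 with control-state TMM, -0.24 with library totals and -0.42 for peaks placed promoter-TSS. The 17 listed promoters that rose were 10, 35 and 49 with control-state TMM, library totals and loess offsets, 1 by the place annotation and 5 with the peak nearest the start site; the 396 that fell were 232 by the place annotation.

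With 1 library left out, rises were 1112 to 5764, drops 3518 to 11767, strong-promoter drops 1927 to 4102, primed-enhancer rises 598 to 2579, long-gene rises 139 to 677, listed promoters lower 205 to 440 and higher 6 to 26, and differences between drug effects 0 to 3731. The promoter median was -0.33 to -0.27, and the drug minus vehicle share of counts -3.21 to -2.55 percentage points in promoters and 0.601 to 0.897 in long-gene introns.

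Replicate numbers did not pair the Context samples: deviations of same-numbered libraries of these groups correlated at -0.28, -0.05 and -0.14. Between Veh-Context and Veh-CFC the values were -0.21, -0.04 and -0.16. Between HDACi-Context and Veh-CFC they were positive, at 0.35, 0.07 and 0.23. Same-numbered pairs with HDACi-CFC lay between -0.03 and 0.08. With the replicate block 3772 peaks rose and 8538 fell, 89 differed between drug effects, and 2 named calls were lost (Mllt3 and Pgs1). Depth limits the weak peaks most, since the shallowest library had 6639158 counts.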
